A study of Mus musculus with 10 samples.

Results

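The genes of the autophagy machinery were compared between ARG1+ and ARG1- myeloid cells of the inflamed spinal cord. The members were 40 genes, picked by symbol and found as rows of the deposited gene count table, which lists 55487 genes. They were described in 4 roles, with 16 genes of initiation, 14 of the conjugation system, 5 cargo receptors and 5 genes of fusion with the lysosome. All 40 passed the filter on low counts that left 13740 genes for testing.

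The cells came from 5 male C57BL/6 mice that carried the reporter allele labelled Arg1tm1Lky, in which cells that transcribe Arg1, the arginase that splits arginine into ornithine and urea, also make a yellow fluorescent protein (YFP). Every mouse had experimental autoimmune encephalomyelitis (EAE), a T cell-driven demyelinating disease raised here by immunization with a myelin peptide in adjuvant together with pertussis toxin, and all were taken at the peak of disease. The methods give an age of 8 to 12 weeks. Viable spinal cord cells without Ly6G and CD3 and with CD45 and CX3CR1 on their surface were split by YFP, so each mouse gave 1 library of 200000 YFP+ cells (ARG1+) and 1 of 100000 YFP- cells (ARG1-). There were thus 5 ARG1+ and 5 ARG1- libraries, with no untreated mice and no second disease stage. Both groups share the reporter allele, the sex and the disease. The gate keeps all CX3CR1+ leukocytes of the cord, so it does not part infiltrating monocyte-derived cells from resident macrophages and microglia, and YFP reports activity of the Arg1 locus rather than the level of the enzyme.

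Autophagy encloses part of the cytoplasm in a double membrane, the autophagosome, and delivers it to the lysosome for breakdown. It starts when the ULK kinase complex, held in check by mTORC1 when amino acids are plentiful and switched on by AMPK when energy is short, activates a lipid kinase complex that marks the growing membrane with phosphatidylinositol 3-phosphate. A pair of ubiquitin-like conjugation reactions then attaches ATG8 proteins (the LC3 and GABARAP families) to the membrane, cargo receptors tie ubiquitin-marked or other cargo to them, and SNARE proteins fuse the closed vesicle with the lysosome. In macrophages the pathway takes part in the breakdown of lipid droplets, damaged mitochondria and engulfed material. RNA levels report the supply of these components and not the flow of material through the pathway, much of which is set by phosphorylation and lipid conjugation of the proteins.

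The promoters of Atg5 and Atg7 are shown because both genes were higher in ARG1+ cells and both hold, in these windows, the letters CACGTG, the core of the CLEAR element that TFEB and its relatives recognise. Each sequence runs 5′ to 3′ on the plus strand from 250 bases before to 50 bases after a RefSeq transcription start (build GRCm38.p6), and the capitals mark CACGTG, which begins 14 bases before the start of Atg5 and 132 bases before that of Atg7. The start used for Atg7 lies within the gene as the count table bounds it, downstream of its first annotated base at 114643097. Whether these cells use that start was not tested.
Atg5 promoter, chr10:44268089-44268388: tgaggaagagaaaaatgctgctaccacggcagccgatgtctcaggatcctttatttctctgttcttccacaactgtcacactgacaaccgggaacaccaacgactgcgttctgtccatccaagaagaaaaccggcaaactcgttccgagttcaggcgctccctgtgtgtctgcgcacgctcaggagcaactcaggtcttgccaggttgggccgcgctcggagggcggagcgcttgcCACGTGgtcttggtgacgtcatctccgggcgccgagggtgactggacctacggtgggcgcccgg
Atg7 promoter, chr6:114670846-114671145: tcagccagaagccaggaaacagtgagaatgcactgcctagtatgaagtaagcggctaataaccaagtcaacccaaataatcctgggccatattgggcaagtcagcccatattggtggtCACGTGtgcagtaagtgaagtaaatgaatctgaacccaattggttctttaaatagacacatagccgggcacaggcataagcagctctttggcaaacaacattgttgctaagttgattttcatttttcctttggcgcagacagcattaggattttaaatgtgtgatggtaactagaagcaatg
RefSeq promoters were matched for 33 of the 40 members, and 5 of them (15.2%) had CACGTG in at least 1 window, namely Atg3, Atg5, Atg7, Atg14 and Rubcn. Over all 27025 genes in the same promoter table the share was 8.09%, and over single windows 7.15%. Of the 7 members called higher below, 6 had a promoter in the table and 2 of these held the letters. The antioxidant response core TGACNNNGC, read on both strands like CACGTG, stood in the windows of 4 members (12.1%), Atg13, Map1lc3b, Tax1bp1 and Ulk2, none of them among the called members, against 14% of genes. Such a match describes the letters only.

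The sort was visible in the target gene. In CPM, the count of a gene relative to the scaled total of its library, Arg1 ranged from 588 to 1049 in the ARG1+ libraries and from 14.3 to 27.0 in the ARG1- libraries, a log2 fold change of 5.45 (standard error 0.213, adjusted p = 1.07e-07). Library totals ran from 8396863 to 35455643 counts, and the lowest belonged to ARG1- cells of animal m234, where 1 CPM stands for 8.5 counts against 28 or more in every other library. Counts of the members in single libraries ran from 42 to 25976. Other cell types moved with the sort as well. Of the dendritic cell markers tested, 6 of 8 were lower in ARG1+ cells, as were 3 of 4 B and plasma cell markers. Of 6 monocyte markers 4 were lower, among them Ccr2 (log2 fold change -1.12). The 1 monocyte marker with a positive log2 fold change (0.78) was called higher by DESeq2 and with the animal as block. The 9 macrophage markers were split, with 4 positive and 5 negative log2 fold changes and a median of -0.011. Cd68, Lyz2 and Mertk were higher and 0 were lower (DESeq2 4 and 0, limma-trend 3 and 0, 4 and 0 at an unadjusted p under 0.05), and with the animal as block 4 were higher and 2 lower. Of the 8 microglia markers 0 were called by edgeR and limma-trend and 1 was lower by DESeq2 (4 lower at an unadjusted p under 0.05), but 6 were lower once the animal was a block. All 8 had negative log2 fold changes, from -1.57 to -0.46 with a median of -0.9. Their summed level overlapped, at 753 to 1130 CPM in ARG1+ and 810 to 2650 CPM in ARG1- libraries. The 3 genes Ptprc, Cx3cr1 and Itgam had log2 fold changes from -1.01 to 0.35. Of these, 1 was called higher and 0 lower, and 1 and 2 with the animal as block. The dendritic cell list summed to 107 to 365 CPM in ARG1+ and 191 to 385 CPM in ARG1- libraries, most of it from Itgax, while Xcr1 and Cd209a did not exceed 0.353 CPM in any library. The T and NK cell markers summed to at most 4.45 CPM in any library. In these bulk samples fewer cells of a type and less RNA per cell cannot be told apart, and the part of the cell mixture in any result below was not tested.

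The autophagy genes were measured in every library and changed little. Per kilobase of exon, their mean levels over the 10 libraries ran from 3.06 CPM for Epg5 to 312 CPM for Gabarap, a 102-fold span with a median of 11.2. Only 4 members were above 50 CPM per kilobase, Gabarap, Sqstm1, Tax1bp1 and Vamp8, and 19 were under 10. In each role the most abundant member by this measure was Atg101 for initiation (30.5 CPM per kilobase), Gabarap for conjugation, Sqstm1 for the receptors (260) and Vamp8 for fusion (56.3). The summed CPM of the 40 members was 3160 to 3350 in ARG1+ libraries and 3030 to 3340 in ARG1- libraries, so the groups overlapped. Within each animal the ARG1+ sum was the higher under TMM scaling, at 3160 against 3032 in m2 and 3351 against 3343 in m235. With total counts as library size this order did not hold in every animal. It turned in m235, for example, where the TMM factors were 0.9766 for ARG1+ and 0.9926 for ARG1-. The members were also even between animals, with a median coefficient of variation of 5.75% in ARG1+ and 7.56% in ARG1- libraries. Over all genes tested it was 10.1% and 11.8%, but this comparison did not match genes by level.

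**Figure D1:**
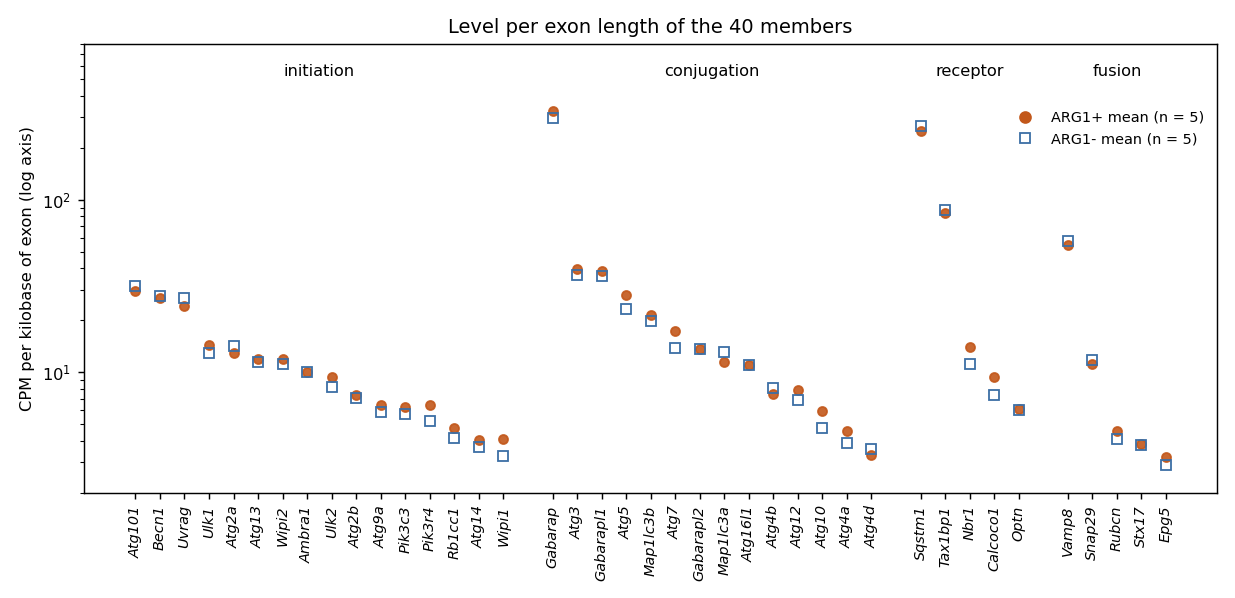
Mean level of each member in CPM per kilobase of exon, on a log axis, ordered within its role, with filled circles for ARG1+ and open squares for ARG1- cells (n = 5 libraries each). Gabarap and Sqstm1 stand above all other members at 312 and 260, and the symbols of the 2 groups nearly coincide for most genes.

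Between ARG1+ and ARG1- cells, 7 of the 40 members were higher at an adjusted p under 0.05 and 0 were lower. The higher genes were Pik3r4 and Wipi1 of initiation, Atg5, Atg7 and Atg12 of conjugation, and the receptors Nbr1 and Calcoco1, by 14.4% to 27.5%. The test was edgeR's quasi-likelihood F-test across all 13740 genes with Benjamini-Hochberg adjustment, and it called 6.82% of all genes higher and 6.15% lower, against 17.5% and 0% of the members. DESeq2 and limma-trend each also called 7 members higher and 0 lower. Over all genes DESeq2 called 1276 higher and 1307 lower, and limma-trend 914 and 841. At an unadjusted p under 0.05 the edgeR test had 14 members higher and 2 lower. The share of all genes under that unadjusted rule is not given here. The count of calls changed when single libraries or animals were left out. Omitting the ARG1+ library of m2 left 3 members higher, and omitting the ARG1+ library of m6 or the ARG1- library of m2 left 4. There were 1, 3 and 4 without animal m2, m6 or m236, while 0 were lower in each of these fits. The number of all genes higher fell in these fits too, from 937 to 572 without the ARG1+ library of m2. It was 372 without animal m2 and 360 without animal m6. The log2 fold changes of the 7 members stayed positive in all 15 omission fits. They were 0.179 to 0.221 for Atg12, the lowest of the 7, and 0.279 to 0.405 for Calcoco1, the highest. All omission fits were run without the block. The median log2 fold change of the members was 0.105, with 28 positive and 12 negative, whereas that of all genes tested was -0.002. No member reached a log2 fold change of 1, the largest being 0.35, and 24 of the 40 had a smaller absolute change than the median gene (0.148). The comparison with the median gene did not match genes by level. For 37 members the whole 95% interval of the log2 fold change lay within 0.5 of 0.

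**Figure D2:**
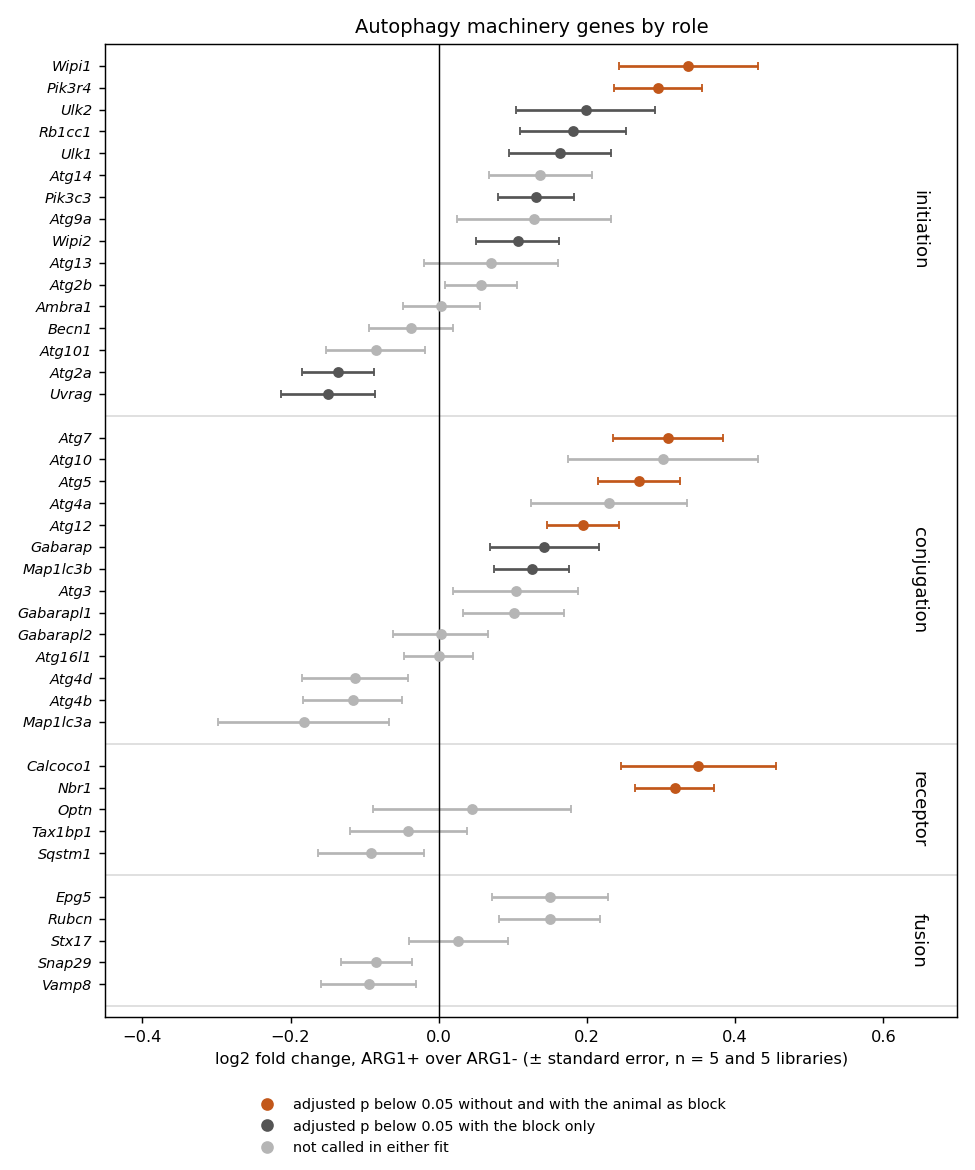
log2 fold change of each of the 40 members, ARG1+ over ARG1-, with its standard error (n = 5 and 5 libraries), grouped by role. Orange marks the 7 genes called in both fits, dark grey the 9 called only with the animal as block, and light grey the rest, and all values lie between -0.18 and 0.35.

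Because each mouse gave both libraries, the comparison can also be made within animals. With the animal as a block, edgeR called 14 members higher and 2 lower (35% and 5%), while over all genes it called 16.8% higher and 18.3% lower. The 7 members called without the block were among the 14. In 17 members ARG1+ exceeded ARG1- in all 5 animals, where 20.0% of all genes did so, and in 4 members, Uvrag, Atg2a, Sqstm1 and Snap29, it was below in all 5, where 21.0% of all genes were. As a further description of the libraries, 8 members had every ARG1+ value above every ARG1- value (6.15% of all genes), and 0 had every value below (5.20% of all genes). These 8 were Pik3c3, Pik3r4, Wipi1, Atg5, Atg7, Atg12, Map1lc3b and Nbr1.

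Initiation held 2 of the called genes, with 0 lower, and a median log2 fold change of 0.12. Pik3r4 encodes the VPS15 subunit that anchors the class III lipid kinase VPS34 (chromosome 9, 105642978 to 105687657, plus strand, GRCm38). Its level in animals m2, m6, m234, m235 and m236 was 34.1, 32.1, 33.0, 29.2 and 35.0 CPM in ARG1+ cells and 25.2, 27.6, 26.7, 26.9 and 26.6 CPM in ARG1- cells. The lowest ARG1+ value, that of m235, was above the highest ARG1- value. The log2 fold change was 0.30 (standard error 0.060, adjusted p = 0.00866), and without both libraries of animal m2 the adjusted p was 0.0671. Wipi1, a WIPI protein that reads phosphatidylinositol 3-phosphate on the forming membrane, lies on chromosome 11 (109573331 to 109611967, minus strand). In the same order of animals it stood at 17.3, 17.8, 16.9, 19.7 and 16.3 CPM in ARG1+ and at 11.6, 15.1, 12.5, 15.8 and 14.3 CPM in ARG1- cells. The groups did not overlap, although m6 and m235 were high among the ARG1- libraries. The log2 fold change, the largest of the role, was 0.34 (standard error 0.0937, adjusted p = 0.0356), and the call held in 5 of 15 fits that left out a library or an animal.

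Of the 5 genes of the ULK kinase complex, 0 were called without the block by edgeR, DESeq2 or limma-trend, and 2 were higher at an unadjusted p under 0.05. Its kinases Ulk1 and Ulk2 had log2 fold changes of 0.16 and 0.20 (adjusted p = 0.131 and 0.178), and the scaffold Rb1cc1, also known as FIP200, had 0.18 (adjusted p = 0.115). With the animal as block all 3 were higher, Ulk1 by 0.17 (adjusted p = 0.0151), Ulk2 by 0.20 (adjusted p = 0.0125) and Rb1cc1 by 0.17 (adjusted p = 0.0468). Within animals, Ulk2 was higher in ARG1+ cells in 5 of 5, whereas Ulk1 was not in m234 and Rb1cc1 was not in m6. The adaptors of the complex, Atg13 and Atg101, had log2 fold changes of 0.07 and -0.08 and were called in neither fit. Atg101, the most abundant initiation gene per kilobase, was at 37.5, 36.6, 37.0, 37.8 and 38.3 CPM in ARG1+ and at 35.6, 37.2, 46.1, 41.1 and 39.5 CPM in ARG1- cells (standard error 0.0668, adjusted p = 0.422). Its ARG1+ values lay within the ARG1- range.

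In the lipid kinase complex, the catalytic subunit Pik3c3 (VPS34) averaged 27.5 ± 0.647 CPM (SD, n = 5) with YFP and 25.1 ± 0.922 CPM without, with no overlap between groups. The change of 0.13 on the log2 scale had an adjusted p of 0.107 without and 0.0453 with the block in edgeR. Uvrag, which takes the place of Atg14 in a second form of the complex that acts on endosomes, went the other way, at 125 ± 8.84 against 139 ± 9.11 CPM. This difference, -0.15 on the log2 scale, had an adjusted p of 0.134 without the block and 0.0317 with it. The values of the other subunits were smaller or less even. Atg14, which directs the kinase to autophagosomes, had 0.14 (adjusted p = 0.211), the scaffold Becn1 (Beclin 1) had -0.04 (adjusted p = 0.7) and its partner Ambra1 had 0.00 (adjusted p = 0.975).

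Among the genes of membrane supply and phosphatidylinositol 3-phosphate effectors, Wipi2, which recruits ATG16L1 to the membrane, had a log2 fold change of 0.11 with an adjusted p of 0.221 without and 0.0474 with the block. Atg2a, a lipid transfer protein that feeds the growing membrane, had -0.14 with an adjusted p of 0.0878 without and 0.0211 with it. Its paralog Atg2b had 0.06 (adjusted p = 0.461), and the lipid scramblase Atg9a had 0.13 (adjusted p = 0.437). In Atg9a, 41.8% of exon bases are shared with other genes on the same strand, so reads there were open to loss as ambiguous.

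**Figure D3:**
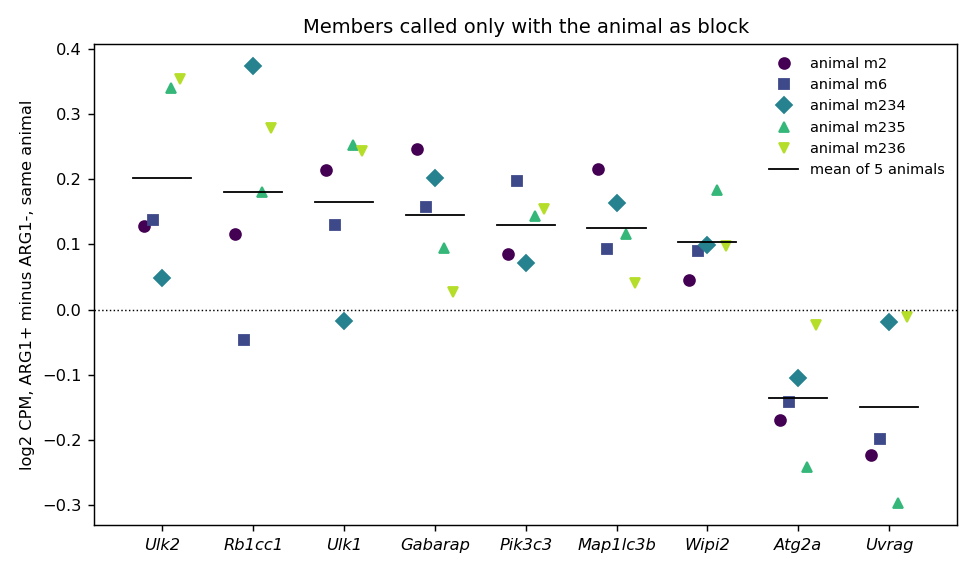
Difference in log2 CPM between ARG1+ and ARG1- cells of the same animal, 1 point per animal, for the 9 members called only with the animal as block, with a line at the mean of 5 animals. All 5 points lie above 0 for Ulk2, Gabarap, Pik3c3, Map1lc3b and Wipi2, all 5 lie below 0 for Atg2a and Uvrag, and 1 animal lies below 0 for Rb1cc1 (m6) and for Ulk1 (m234).

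The conjugation system held 3 called genes, all of the reaction that joins ATG12 to ATG5, with 0 lower and a median log2 fold change of 0.115 over its 14 members. Atg5, the acceptor of ATG12 (chromosome 10, 44268358 to 44364291, plus strand), stood at 71.4, 64.1, 62.5, 68.5 and 64.5 CPM in ARG1+ cells of m2, m6, m234, m235 and m236 and at 53.6, 55.9, 50.5, 55.6 and 58.4 CPM in ARG1- cells. Each ARG1+ library was above each ARG1- library. The log2 fold change was 0.27 (standard error 0.0551, adjusted p = 0.00894), and the adjusted p was 0.0614 without animal m2. Atg7, the E1-like enzyme that activates both ATG12 and the ATG8 proteins (chromosome 6, 114643097 to 114860614, plus strand), was measured at 76.2, 66.7, 69.7, 74.2 and 66.4 CPM in ARG1+ and at 61.8, 54.4, 47.4, 61.1 and 59.2 CPM in ARG1- cells. The groups did not overlap, and the lowest value was that of the shallow ARG1- library of m234. At 0.31, its log2 change was the largest of the role (standard error 0.0743, adjusted p = 0.0193), and it was not called without the ARG1+ library of m2, without animal m2 or without animal m6 (adjusted p up to 0.0783). Atg12, the ubiquitin-like protein itself, on chromosome 18, ran at 38.0, 39.1, 37.2, 36.9 and 37.1 CPM in ARG1+ and at 32.3, 33.9, 31.0, 34.2 and 32.8 CPM in ARG1- cells. The separation was narrow but complete, at a log2 fold change of 0.19 (standard error 0.0484, adjusted p = 0.0229), and 9 of 15 fits without a library or animal kept the call.

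The remaining enzymes were not called in either fit. Atg10, the E2-like enzyme of the ATG12 reaction, which had the fewest counts of all members (42 to 331 in a library), had a log2 fold change of 0.30, about that of Atg7, but with a standard error of 0.128 and an adjusted p of 0.135. It was higher in ARG1+ cells in 5 of 5 animals. Atg3, the E2-like enzyme for ATG8 proteins, had 0.10 (adjusted p = 0.441), and Atg16l1, which carries the ATG12-ATG5 conjugate to the membrane, had 0.00 (standard error 0.0471, adjusted p = 0.997). The ATG4 proteases, which prime and release ATG8 proteins, were split, with 0.23 for Atg4a (adjusted p = 0.164), -0.12 for Atg4b (adjusted p = 0.27) and -0.11 for Atg4d (adjusted p = 0.315). For Atg4a, 51.2% of all 50-base stretches of its transcripts also occur in its pseudogene Atg4a-ps, so its counts are uncertain.

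Of the 5 ATG8 proteins, 0 were called without the block by edgeR, DESeq2 or limma-trend (1 higher at an unadjusted p under 0.05), and 2 were higher with it. Gabarap, the most abundant member per kilobase, was at 451, 423, 418, 487 and 435 CPM in ARG1+ and at 380, 379, 363, 456 and 427 CPM in ARG1- cells of the 5 animals. The ranges of the groups overlapped, yet ARG1+ was above ARG1- in each animal. Over all libraries the log2 fold change was 0.14 (standard error 0.0737, adjusted p = 0.216), and 0.15 with the block (adjusted p = 0.0197). Map1lc3b, which encodes LC3B, the usual marker protein of autophagosomes, had 111 ± 4.5 against 102 ± 5.02 CPM (SD, n = 5) without overlap. The log2 fold change, 0.13, had an adjusted p of 0.118 without and 0.0239 with the block in edgeR. Gabarapl1 had 0.10 (adjusted p = 0.345), Gabarapl2 had 0.00 (adjusted p = 0.984), and Map1lc3a had -0.18 (adjusted p = 0.313), the lowest value among the members.

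The 5 cargo receptors were divided, with 2 higher, 0 lower and a median log2 fold change of 0.05. Nbr1, a receptor for ubiquitin-marked aggregates and peroxisomes (chromosome 11, 101552149 to 101581951, plus strand), had 72.9, 73.8, 70.6, 71.1 and 77.7 CPM in ARG1+ cells of m2, m6, m234, m235 and m236 and 53.6, 58.5, 63.1, 58.2 and 60.8 CPM in ARG1- cells. The groups lay well apart, and the rise was seen in 5 of 5 animals. At 0.32 on the log2 scale (standard error 0.0529), it had the lowest adjusted p of all members (0.00319), and it was the one member called in all 15 fits without a library or an animal, at adjusted p-values up to 0.0321. Calcoco1, a receptor for the endoplasmic reticulum (chromosome 15, 102706777 to 102722178, minus strand), was at 34.5, 36.2, 38.9, 30.2 and 38.5 CPM in ARG1+ and at 26.0, 30.8, 28.9, 22.1 and 32.0 CPM in ARG1- cells. The ranges overlapped, with the lowest value of each group in m235, while every animal had the higher value in ARG1+ cells. The log2 fold change was the largest of the 40 members, 0.35 (standard error 0.104, adjusted p = 0.0451), and 3 of 15 fits without a library or animal kept the call. With the animal as block its adjusted p was 0.000508.

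The other receptors were not called. Sqstm1, which encodes p62, the receptor that is itself degraded with its cargo, was the most abundant receptor per kilobase. It stood at 658, 700, 741, 750 and 700 CPM in ARG1+ and at 702, 722, 875, 771 and 713 CPM in ARG1- cells. ARG1- was above ARG1+ in each animal, the ranges overlapped, and the highest value was that of the shallow library of m234. The log2 fold change of -0.09 (standard error 0.0715) had an adjusted p of 0.418 without and 0.129 with the block in edgeR. Exons of Mrnip on the other strand cover 20.5% of its exon bases. Tax1bp1, another receptor for ubiquitin-marked cargo, had -0.04 (adjusted p = 0.765) and Optn (optineurin), a receptor in the clearance of mitochondria and bacteria, had 0.05 (adjusted p = 0.854).

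**Figure D4:**
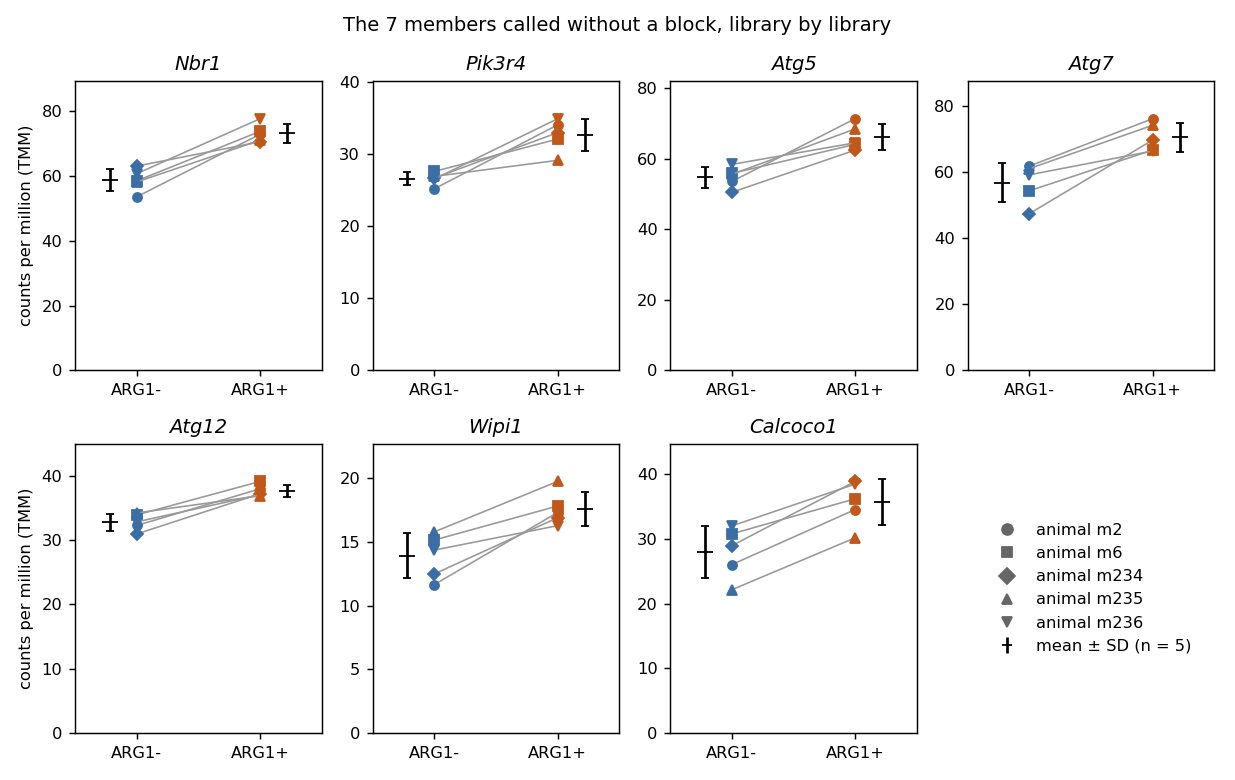
CPM of the 7 members called without a block in every library, with lines joining the 2 libraries of an animal and black bars for mean ± SD (n = 5), on axes that start at 0. Every line rises from ARG1- to ARG1+, and the groups overlap only for Calcoco1.

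Genes of fusion did not pass the test in either direction with or without the block, and DESeq2 and limma-trend called 0 of the 5 as well, while at an unadjusted p under 0.05 only Rubcn was reached in edgeR. The median log2 fold change was 0.03. Vamp8, the lysosomal SNARE and the most abundant of the 5 per kilobase, was at 117, 129, 138, 120 and 125 CPM in ARG1+ and at 124, 128, 130, 146 and 144 CPM in ARG1- cells, with overlapping ranges (log2 fold change -0.09, standard error 0.0642, adjusted p = 0.35). Epg5, a tether that holds autophagosome and lysosome together, was at 30.1, 31.6, 31.1, 32.8 and 29.3 CPM in ARG1+ and at 25.5, 28.5, 33.2, 28.7 and 24.6 CPM in ARG1- cells. At 0.15 the log2 fold change was the largest of the role (standard error 0.0781, adjusted p = 0.218), and m234 had the opposite order to the other animals. Stx17, the SNARE of the autophagosome, had 0.03 (adjusted p = 0.826), and Snap29, which joins it with VAMP8, had -0.08 (adjusted p = 0.263). Rubcn (Rubicon), an inhibitor of the fusion step that also serves LC3-associated phagocytosis, had 0.15 (adjusted p = 0.161, and 0.0522 with the block).

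The rest of the pathway was read from lists beyond the 40 members. The shares of 6.82% of all genes higher and 6.15% lower apply to edgeR without the block only. Among 17 tested genes for further cargo receptors and selective autophagy, 6 were higher and 0 lower, with a median log2 fold change of 0.15. The 2 largest were Ncoa4, the ferritin receptor, at 157 ± 16.1 against 106 ± 13.3 CPM (SD, n = 5, log2 fold change 0.56, adjusted p = 0.00324), and Tecpr1, an autophagosome tether and lysosomal damage sensor, at 46.2 ± 2.75 against 33.6 ± 2.2 CPM (0.45, adjusted p = 0.00113). The others called were Bnip3 and Bnip3l, receptors of mitochondria, Tex264, a receptor of the endoplasmic reticulum, and Tecpr2. All 6 had every ARG1+ value above every ARG1- value, as did 6.15% of all genes. They were picked by their calls in the same data, so this separation is no further support. DESeq2 called 8 of this list higher and 0 lower, limma-trend 6 and 0, and at an unadjusted p under 0.05 edgeR had 8 and 1. The other core genes had 1 of 18 higher, Atg4c, another ATG4 protease (0.32, adjusted p = 0.0346), and 0 lower (DESeq2 and limma-trend 2 and 0 each, 5 and 0 at an unadjusted p under 0.05). The lists were chosen with earlier results of these data known, and the difference between them was not tested. Of 21 genes for tethering and fusion, 2 were higher, the HOPS tether subunits Vps41 (0.27, adjusted p = 0.00836) and Vps39 (0.25, adjusted p = 0.0467), and 0 were lower (DESeq2 2 and 1, limma-trend 1 and 0, 6 and 2 at an unadjusted p under 0.05). With the animal as block these counts were 8 higher and 1 lower for the receptors, 5 and 1 for the core and 9 and 2 for tethering and fusion, where all genes had 16.8% and 18.3%.

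Of 35 tested genes of the mTORC1 and AMPK control of autophagy, 4 were higher and 3 lower, with a median log2 fold change of 0.06. With the animal as block 11 were higher and 6 lower, DESeq2 called 7 and 4 and limma-trend 5 and 3, and at an unadjusted p under 0.05 edgeR had 10 and 6. Fnip2, a partner of folliculin in amino acid signalling at the lysosome, was at 258 ± 26 against 182 ± 19.8 CPM (SD, n = 5, log2 fold change 0.50, adjusted p = 0.00388). Prkab2, a regulatory subunit of AMPK, was lower at 16.8 ± 2.13 against 22.7 ± 3.6 CPM (-0.42, adjusted p = 0.0333). The other called genes were Tsc1, Tsc2 and Lamtor3, which were higher, and Rraga and Stk11, which were lower. The arginine sensors of mTORC1 did not pass the test. Castor1, the cytosolic sensor, had 7.76 ± 1.57 against 7.32 ± 1.03 CPM (0.10, adjusted p = 0.705), and Slc38a9, the lysosomal one, had 25.2 ± 1.2 against 27.8 ± 1.88 CPM (-0.14, adjusted p = 0.162, and 0.0462 with the block). Of the 8 transcription factors of autophagy genes, 0 were called in either direction by edgeR, DESeq2 or limma-trend, and 0 at an unadjusted p under 0.05, among them Tfeb (-0.08, adjusted p = 0.727) and Tfe3 (-0.07, adjusted p = 0.349). With the block 1 of the 8 was higher, Tfec, named after its value was seen (0.33, adjusted p = 0.167 without and 0.00428 with the block).

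**Figure D5:**
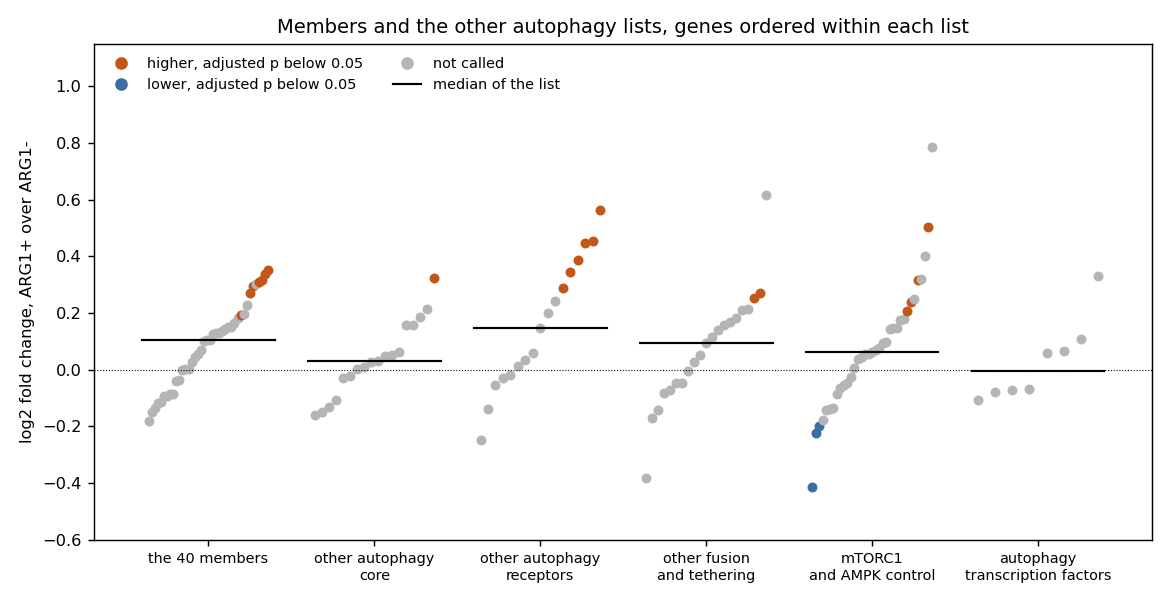
log2 fold change, ARG1+ over ARG1-, of each gene in the 40 members and in 5 further lists, ordered within a list, with orange for genes called higher, blue for genes called lower and a line at each list's median. The highest called point is Ncoa4 of the receptor list at 0.56, uncalled points reach 0.62 in the tethering and fusion list and 0.79 in the mTORC1 and AMPK list, and blue points occur only in the mTORC1 and AMPK list.

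Mapping limits touched few of the called genes. None of the 7 shares exon bases with another gene in the annotation, and at most 1.43% of the 50-base stretches of their transcripts, in Calcoco1, occur in another gene. Among the members as a whole, 4 have at least 10% of their exon bases in another gene, Atg9a, Becn1, Atg4d and Sqstm1, and 3 share at least 10% of their 50-base stretches, Atg4a, Atg9a and Gabarapl2.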

How the data were processed

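Sorted-cell RNA was sequenced by the authors as directional libraries with 50-base single-end reads, aligned with STAR (version 2.7.10b in the submitters' processing notes, which also name Picard) to GRCm38 with an Ensembl annotation, and counted per gene over transcripts with summarizeOverlaps in Union mode. The deposited values are raw counts per gene. In the sources used here, the use of strand in counting is not given. Columns were mapped to animals and groups by the labels' titles.

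From these counts, genes above 1 CPM in at least 3 of 10 libraries were kept, scaled by TMM and tested with edgeR 4.0.16 (quasi-likelihood, R 4.3.3) without a block, since the study's methods name none, with Benjamini-Hochberg adjustment over all genes. CPM values are TMM-scaled, and levels per kilobase use the summed exon length of GENCODE M21 basic (GRCm38), whose bounds matched those of all 40 members. DESeq2 1.42.0 and limma-trend 3.58.1 (prior count 2), other scalings and filters, the animal as block, a log2 fold change limit of 1 and the omission of each library or animal were alternatives. Animal numbers in the labels pair the samples. Residual log2 CPM correlated at 0.361 to 0.664 within animals and at most 0.0675 between animals. p-values without the block treat paired libraries as independent. The fits were tested on simulated counts that held no animal effect, so that check does not cover the pairing of libraries.

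Members and lists were chosen with earlier results of these data known. The members given in full are those at adjusted p under 0.05 and, per role, the most abundant per kilobase and the one with the largest absolute log2 fold change. Members whose call changes with the block are given with both values, and of each further list the 2 largest called changes plus Castor1 and Slc38a9.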

Additional observations from a re-analysis of the deposited data

Results flagged for a closer look

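Each member was examined in both groups of 5 libraries, 80 groups in all, for a highest or lowest library that stands far from the rest, which chance gives in about 1 of 20 groups. In 2 groups a library did so, and both times it was the ARG1- library of animal m234, the one with the fewest counts. Atg3 was at 59.9 CPM in it, while the other 4 ARG1- libraries held 75.9 to 83.5 CPM. Atg4d was at 22.7 CPM in it, against 20.8 to 21.3 CPM in the others. Neither gene was called in any fit of all 10 libraries, and the part of depth in these values was not tested.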

How the results depend on the processing

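The number of members higher in ARG1+ cells was 7 with DESeq2, limma-trend, RLE size factors and another filter (filterByExpr), and 5 with no filter or with total counts as library size. With total counts 2 members were lower, Uvrag and Atg2a (log2 fold changes -0.19 and -0.18, adjusted p = 0.0493 and 0.0439 in edgeR), 1282 genes of all were lower, and the median of all genes moved to -0.043. DESeq2 called 1307 of all genes lower. The replicate block gave 14 members higher and 2 lower, with 2307 and 2519 of all genes, and it ended no call of a member. A limit of 1 on the absolute log2 fold change left 0 members, with 77 genes higher and 122 lower. Leaving out a library or an animal gave 1 to 7 members higher and 0 lower (360 to 1037 and 284 to 911 of all genes). The fewest, 1, came without animal m2. It was 3 without animal m6 or the ARG1+ library of m2, and 4 without animal m236, the ARG1+ library of m6 or the ARG1- library of m2. Without the shallow ARG1- library of m234 it was 6. Members with groups that do not overlap numbered 7 to 12 over the alternatives. The sign turned only where the log2 fold change was close to 0. With total counts it was -0.0372 for Ambra1, -0.0369 for Gabarapl2 and -0.0133 for Stx17. Atg16l1 had 0.0021 with filterByExpr, 0.0035 with limma-trend and 0.0124 with no filter. Over the omissions the log2 fold change ranged from -0.0181 to 0.0265 for Ambra1, -0.0194 to 0.0189 for Atg16l1, -0.0277 to 0.0516 for Gabarapl2, -0.0347 to 0.13 for Optn, -0.0654 to 0.0072 for Becn1, -0.0023 to 0.1038 for Stx17 and -0.0855 to 0.0236 for Tax1bp1. With 5 libraries per group the members' standard errors limit what could be seen, and a member that was not called is not shown to be equal between the groups. The cause of the differences between settings was not tested.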
